A study of Verbena bonariensis with 6 samples.

Results

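Transcripts of the CONSTANS-like (COL) and B-box (BBX) proteins were followed in roots of Verbena bonariensis, an ornamental plant, with and without cadmium. Members were the gene clusters whose regulator family or best Swiss-Prot hit was named CONSTANS-LIKE, B-box zinc finger protein or SALT TOLERANCE. The rule took 87 of the 8147 regulator clusters in the deposited table, all by the name of an Arabidopsis protein in Swiss-Prot, and none of them by the family or by the words SALT TOLERANCE. A cluster is a unit of transcript sequence to which reads were counted, not a mapped gene, and the 87 clusters carried 19 protein names. Their sequences were not analysed here, so all names are those of the best hit.

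RNA-seq libraries of the strain Finesse were compared in 2 groups of 3 replicates, taken from 2-month-old plants under a 14 h photoperiod. Control plants received no cadmium solution, and the other plants were kept in soil with 100 mg/kg cadmium for 20 days before their roots were frozen. The design had 15 pots per treatment in each of 3 repeats, and the labels call the replicates biological. The sources used here give neither the number of root systems per library nor the hour of harvest.

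B-box domains are small zinc-binding folds through which proteins bind each other, and many members also carry a CCT domain, a stretch shared by CONSTANS, its relatives and the pseudo-response regulators of the circadian clock. In Arabidopsis, CONSTANS promotes flowering in long days by activating FT, in a complex with NF-Y subunits on the DNA. B-box proteins without a CCT domain act mostly in the light response of seedlings, where several bind the bZIP factor HY5 and either help it or hold it back. Transcripts of many of these genes follow the clock and the light.

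The recovered library totals lay between 18619728 and 20558908 fragments in the control group and between 20390656 and 23343050 in the cadmium group. Regulator counts summed to 1207479 to 1340255 per control library and 1092183 to 1228042 per cadmium library. Levels are given as CPM unless FPKM is named. CPM are counts scaled to the regulator total of each library after adjustment of that total by edgeR's TMM factor. FPKM, which is scaled to the length of the cluster and to the whole library, is used wherever levels of different clusters are compared. The root regulators SHORT-ROOT, SCARECROW and LATERAL ROOT PRIMORDIUM 1 were present in all 6 libraries. Of 33 root-list clusters 3 were at 0 everywhere, and the list summed to 2990 to 3160 CPM in control and 3505 to 5259 CPM in cadmium. Of 30 shoot-list clusters 8 were at 0, and the rest summed to 2207 to 2409 CPM in control and 1576 to 1734 CPM in cadmium, nearly all of it GLK1, a chloroplast regulator. AGAMOUS, MUTE, YABBY 2 and GLK2 stayed at or under 7.79 CPM in each library.

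Cadmium roots held less RNA of clusters named BBX18, BBX19, BBX22, BBX24 and COL5, and more of clusters named COL9 and of a set of COL10 clusters. The most abundant COL5 cluster fell 10.4-fold and the most abundant BBX24 cluster 5.76-fold, while the most abundant COL9 cluster rose 10.5-fold (folds fitted by edgeR, n = 3 per group). That COL9 cluster has a COL4-like protein as its best hit in the NR protein database. Of the COL9 clusters with a COL9 or COL9-like best NR hit, Cluster-9033.99661 rose 3.26-fold and Cluster-9033.99662 rose 2.59-fold. Of the 62 members that passed the filter on low counts, 33 changed, which is 53.2%, against 30.5% of all 4844 clusters tested (edgeR's quasi-likelihood fit, with a Benjamini-Hochberg adjusted p below 0.05). Of these, 12 members rose (19.4%, against 15.8% of all tested) and 21 fell (33.9%, against 14.6%). The median log2 fold change of tested members was −0.55, against −0.08 for all clusters tested. In bulk roots, fewer cells of a type and less RNA per cell cannot be told apart.

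The share of members that rose depends on the scaling. With whole-library totals in place of scaling within the regulators, the median of all tested clusters shifts by −0.347 on the log2 scale, and 10 members rose and 26 fell, against 33.8% of all tested clusters that changed on that scale. The share of higher members among the changed ones was then 27.8% in place of 36.4%, against 32.32% in place of 51.96% for all changed clusters. On that scale 10.9% of all tested clusters rose and 22.9% fell. The call was the same for 31 of the 33 changed members, 2 lost it (a COL13 and a COL16 cluster, both higher), and 5 more were called lower. Control and cadmium values were fully separate for 44 of the 62 tested members (71%, against 53.5% of all tested clusters), and all 33 changed members were among them.

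**Figure D1:**
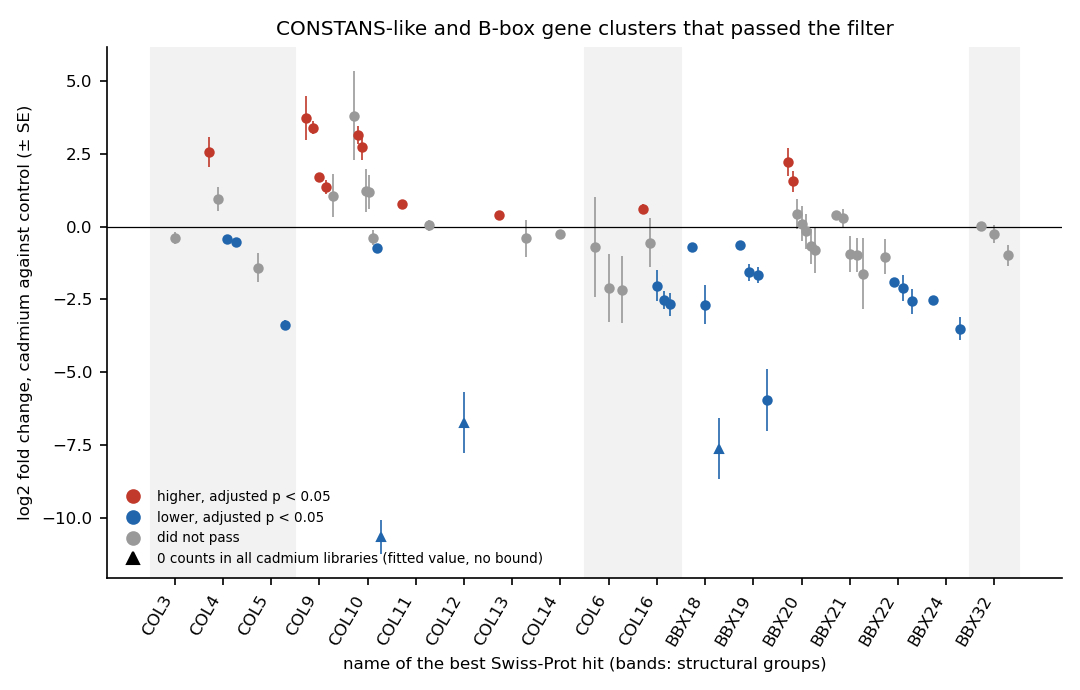
Log2 fold change of cadmium against control for the 62 tested members (vertical axis, bars ± SE of the edgeR fit), grouped along the horizontal axis by the name of the best Swiss-Prot hit, with shaded bands marking structural groups. COL9 points lie above 0 and BBX18, BBX19, BBX22 and BBX24 points below it, COL4, COL10 and COL16 have changed clusters on both sides, and triangles mark 3 clusters with 0 counts in all cadmium libraries, whose fitted values are no bound.

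In FPKM, the summed level of all members was 737, 682 and 665 in the control libraries and 555, 560.5 and 524 in the cadmium libraries. All cadmium sums were below all control sums, while the CPM sums of the groups overlapped, with means of 13643 and 13157. FPKM is scaled to the whole library and CPM within the regulators. Regulators together made up 6.45% to 6.52% of the control libraries and 5.23% to 5.53% of the cadmium libraries. Lower FPKM sums are thus not particular to the members. The makeup of the members' sum differed more than its size. Clusters named COL9 to COL15 made up 43.3% of the members' FPKM in control and 68.2% in cadmium, and BBX18 to BBX25 made up 24.5% and 10.7%. These shares follow the Swiss-Prot names. The COL9 to COL15 share includes Cluster-9033.105807, at 8.93 FPKM in control and 73.9 FPKM in cadmium, whose best NR hit is COL4-like. Clusters of COL1 to COL5 made up 19.9% and 11.1%, those of COL6 and COL16 4.87% and 2.69%, and BBX32 7.43% and 7.24%.

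**Figure D2:**
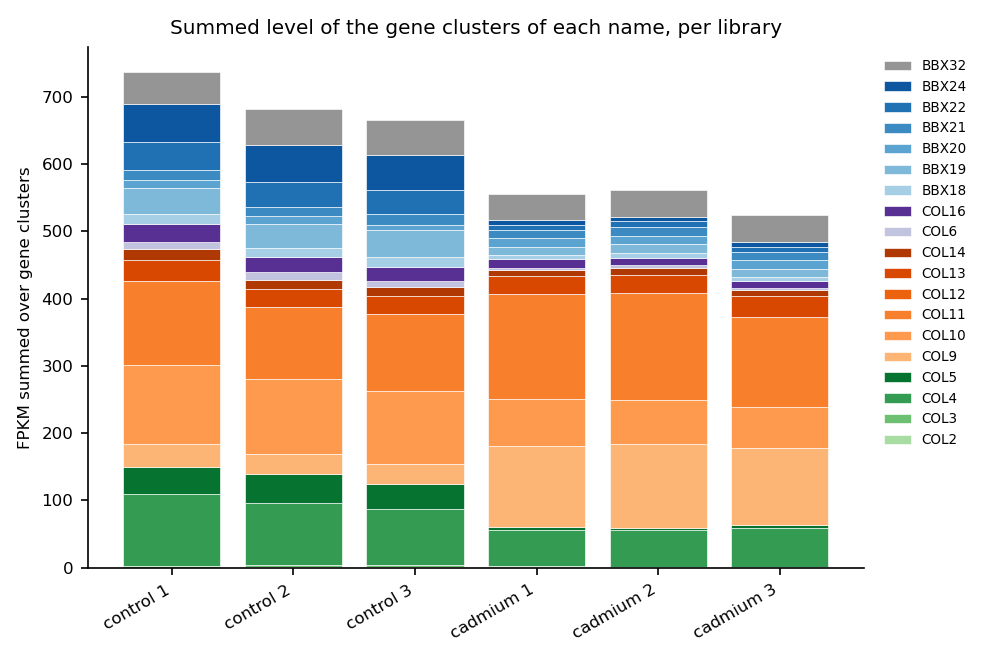
FPKM summed over the member clusters of each name (vertical axis) in each of the 6 libraries (horizontal axis), with greens for COL1 to COL5, oranges for COL9 to COL15, purples for COL6 and COL16, blues for BBX18 to BBX25 and grey for BBX32. The orange part grows from 301 to 373 FPKM on average, and the blue part shrinks from 170.3 to 58.6 FPKM. Orange includes the COL9 cluster Cluster-9033.105807 (8.93 to 73.9 FPKM), whose best NR hit is COL4-like.

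The order of single clusters by FPKM changed as well. A COL11 cluster (Cluster-9033.98458) was the most abundant member in both groups, at 102 ± 9.31 FPKM in control and 138 ± 11.5 FPKM in cadmium (SD, n = 3). In control it was followed by clusters of COL10 (Cluster-9033.77935, 72.0 ± 7.70 FPKM), COL4 (Cluster-9033.67347, 52.2 ± 7.39 FPKM) and BBX32 (Cluster-9033.124580, 44.4 ± 2.51 FPKM). In cadmium the second place was held by a COL9 cluster (Cluster-9033.105807, 73.9 ± 1.56 FPKM), which ranked 19 in control. The leading COL5 cluster moved from rank 6 to 25 and the leading BBX24 cluster from rank 7 to 20. Over all members, 18 clusters had a mean above 10 FPKM in control and 10 in cadmium, and 30 were below 1 FPKM in both groups.

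COL1 to COL5, the closest relatives of CONSTANS, which in Arabidopsis carry 2 B-boxes and a CCT domain, were represented by 11 clusters named COL2, COL3, COL4 and COL5. Of the 7 tested, 1 rose and 3 fell (against 15.8% and 14.6% of all tested clusters). The summed level of the group went from 138 ± 12.5 to 60.8 ± 1.94 FPKM. The COL5 cluster Cluster-9033.39557 stood at 1007, 1084 and 913 CPM in the control libraries and at 114, 76.8 and 96.0 CPM in the cadmium libraries. Every control library was above every cadmium library, and the log2 fold change was −3.38 ± 0.17 (SE, n = 3 per group, edgeR, Benjamini-Hochberg adjusted p = 0.000104). This was the smallest adjusted p among the members. COL5 induces flowering in short days when overexpressed in Arabidopsis.

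COL4, a repressor of flowering in Arabidopsis with a part in salt and abscisic acid responses, fell in its abundant clusters by a smaller step. Cluster-9033.67347 was at 1023, 958 and 768 CPM in control and 701, 643 and 694 CPM in cadmium. The groups did not overlap but lay close, with a log2 fold change of −0.43 ± 0.12 (SE, edgeR, Benjamini-Hochberg adjusted p = 0.0404). That call ended when any library other than control replicate 3 was left out (adjusted p 0.0161 to 0.161 over the 6 libraries left out in turn) and without a filter on low counts. A second COL4 cluster, Cluster-9033.70060, named here after its values were seen, went from 749.8, 633 and 634 to 444, 447 and 494 CPM, a log2 fold change of −0.54 ± 0.1 (SE), a call that ended without cadmium replicate 2.

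A minor COL4 cluster went the other way. Cluster-9033.67358 was at 3.66, 3.24 and 3.23 CPM in control and at 19.5, 20.6 and 20.8 CPM in cadmium (log2 fold change 2.55 ± 0.51, SE, edgeR, Benjamini-Hochberg adjusted p = 0.0126). The call ended without control replicate 2 or cadmium replicate 2 (adjusted p 0.0458 to 0.0547 over the 6 libraries left out). These 3 COL4 clusters share their best hit in the NR protein database, a COL4-like protein of sesame. Counts summed over them fell from 1592 ± 186 to 1162 ± 48.8 CPM (SD, n = 3), a log2 fold change of −0.45 ± 0.1 (SE), so the direction of the minor cluster is not that of the sum.

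COL3, which acts in light responses and lateral root formation in Arabidopsis, had 1 cluster, Cluster-9033.148926, at 86.3, 104 and 92.9 CPM in control and 82.3, 69.3 and 62.3 CPM in cadmium. The cadmium libraries lay lower without overlap, but the difference did not pass (log2 fold change −0.40 ± 0.21, SE, edgeR, Benjamini-Hochberg adjusted p = 0.203). It passed as lower with whole-library totals (−0.75) and when summed with 3 further clusters of the same NR protein (−0.48 ± 0.17, SE). Only 2 of the 4 clusters in that sum are members. The COL2 cluster Cluster-9033.147024 had 4.39, 5.67 and 9.69 CPM in control and 0 in all cadmium libraries, too few counts for the test.

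COL9 to COL15, with a second, diverged B-box in Arabidopsis, were the group in which more clusters rose than fell. Of 26 clusters 19 were tested, 8 rose and 3 fell (against 15.8% and 14.6% of all tested clusters). The median log2 fold change was 1.06, or 0.72 with whole-library totals. The summed level was 323, 288 and 292 FPKM in control and 383, 386 and 349.8 FPKM in cadmium. Every cadmium sum was above every control sum. Cluster-9033.105807, named COL9 but with a COL4-like best NR hit, alone went from 8.93 to 73.9 FPKM on average. The rise of the group sum thus rests largely on the Swiss-Prot name of this cluster. By name, the mean FPKM sum rose for COL9 (30.5 to 120) and COL11 (115 to 149) and was level for COL13 (28.2 in both groups). It fell for COL10 (112 to 65.7), COL14 (13.9 to 9.84) and COL12 (0.66 to 0).

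COL9, which delays flowering in Arabidopsis, rose in 4 of its 5 clusters, and none fell with edgeR, DESeq2 or limma on log2(FPKM + 1), also at an unadjusted p below 0.05. Cluster-9033.105807 was at 249, 151 and 153 CPM in control and at 2041, 1907 and 1888 CPM in cadmium. The lowest cadmium library was far above the highest control library, and the log2 fold change was 3.39 ± 0.22 (SE, edgeR, Benjamini-Hochberg adjusted p = 0.000212). Its best NR hit is named COL4-like and no CCT domain is annotated on it, so the name COL9 rests on the Swiss-Prot hit. Cluster-9033.112113, with the same NR hit, rose from 5.12, 6.48 and 0.808 to 77.2, 53.4 and 38.1 CPM (3.73 ± 0.75, SE).

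The COL9 cluster Cluster-9033.99661, whose best NR hit is also named COL9, was at 87.1, 86.6 and 83.2 CPM in control. In cadmium it was at 283, 278 and 277 CPM. The spread within each group was small, and the log2 fold change was 1.7 ± 0.11 (SE, edgeR, Benjamini-Hochberg adjusted p = 0.000225). Cluster-9033.99662, whose best NR hit is a COL9-like protein of tobacco and on which no B-box is annotated, rose from 56.3, 44.5 and 41.2 to 131, 101 and 136 CPM (1.37 ± 0.24, SE). The 4 calls held when any single library was left out.

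Clusters named COL10 split by their NR hit. Of 12 clusters 8 were tested, 2 rose and 2 fell (against 15.8% and 14.6% of all tested clusters). Both that rose have a COL9-like protein of sesame as best NR hit. Cluster-9033.146331 went from 59.99, 42.1 and 16.2 to 298, 266 and 228 CPM, and Cluster-9033.146332 from 8.05, 10.5 and 12.1 to 103, 77.7 and 90.0 CPM. All cadmium libraries were above all control libraries in both, with log2 fold changes of 2.74 ± 0.46 and 3.13 ± 0.31 (SE). The 7 clusters with that NR hit summed to 98.8, 129 and 128 CPM in control and 635, 598 and 568 CPM in cadmium.

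Both COL10 clusters that fell have a COL10-like protein of sesame as best NR hit. Cluster-9033.77935 was at 1843, 1591 and 1533 CPM in control and at 1062, 944 and 975 CPM in cadmium, a log2 fold change of −0.74 ± 0.09 (SE, edgeR, Benjamini-Hochberg adjusted p = 0.00232). Its groups lay well apart. Cluster-9033.76639 had 132, 218 and 161 CPM in control and no count in any cadmium library, or at least 193-fold lower when 3 counts are assumed for the whole cadmium group. The 4 clusters of this NR protein summed to 2373 ± 157 CPM in control and 1432 ± 168 CPM in cadmium (SD, n = 3), a log2 fold change of −0.73 ± 0.1 (SE). The sum thus fell by far less than Cluster-9033.76639 did.

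The COL11 cluster Cluster-9033.98458 stood at 1998, 1713 and 1816 CPM in control and 3331, 3341 and 2836 CPM in cadmium. The cadmium libraries were all higher, with a log2 fold change of 0.78 ± 0.09 (SE, edgeR, Benjamini-Hochberg adjusted p = 0.00182), or 0.43 with whole-library totals, where the call held. Its best NR hit is an uncharacterized protein of sesame, and only a CCT domain is annotated, so the COL11 name is a loose one. It made up 14.7% of the members' FPKM in control and 25.3% in cadmium.

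COL13, known from the control of hypocotyl length in Arabidopsis, had Cluster-9033.120000 at 688, 609.6 and 548 CPM in control and 780.1, 759 and 875 CPM in cadmium. The groups did not overlap and the log2 fold change was 0.39 ± 0.11 (SE, edgeR, Benjamini-Hochberg adjusted p = 0.0428), the largest adjusted p among the changed members. With whole-library totals the log2 fold change was 0.04 and the call was lost, and FPKM were 26.9 ± 3.14 and 27.8 ± 2.41 (SD, n = 3). The call also ended without a filter on low counts, and when any library other than control replicate 1 was left out (adjusted p 0.0407 to 0.127 over the 6 libraries).

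COL12, a repressor of flowering bound by the ubiquitin ligase COP1 in Arabidopsis, had a single cluster of low level. Cluster-11211.1 was at 10.97, 11.3 and 10.5 CPM in control and at 0 in all cadmium libraries, at least 12.4-fold lower by the same bound (edgeR, Benjamini-Hochberg adjusted p = 0.0142). That call ended when any control library was left out (adjusted p 0.0353 to 0.069 over the 6 libraries). COL14, with Cluster-9033.49304 at 394, 315 and 323 CPM in control and 309.5, 253 and 292 CPM in cadmium, did not pass (log2 fold change −0.27 ± 0.14, SE, edgeR, Benjamini-Hochberg adjusted p = 0.196), and passed as lower with whole-library totals (−0.62). Another COL14 cluster, Cluster-9033.49303, had counts only in cadmium replicate 2, at 55.2 CPM.

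COL6 and COL16, which in Arabidopsis carry 1 B-box and a CCT domain, had 11 clusters, of which 8 were tested. Of these 1 rose and 3 fell (against 15.8% and 14.6% of all tested clusters). The 11 clusters summed to 37.4, 34.4 and 29.8 FPKM in control and 15.6, 14.6 and 13.9 FPKM in cadmium, without overlap. Among COL16 clusters, Cluster-8738.0 went from 199.7, 182 and 126 to 24.6, 15.9 and 38.9 CPM and Cluster-9033.20516 from 105, 89.9 and 83.2 to 17.0, 18.7 and 12.1 CPM. Both fell well below the control range, with log2 fold changes of −2.67 ± 0.39 and −2.53 ± 0.3 (SE), and both calls held when any single library was left out.

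Another COL16 cluster, Cluster-9033.108610, was at 212, 165 and 177 CPM in control and at 329.9, 253 and 257 CPM in cadmium (log2 fold change 0.6 ± 0.17, SE, edgeR, Benjamini-Hochberg adjusted p = 0.0395). The rise ended with whole-library totals (0.25), without a filter on low counts, and when any library other than control replicate 1 was left out (adjusted p 0.0477 to 0.122 over the 6 libraries). It shares its best NR hit with Cluster-8738.0. Their NR protein, with 3 clusters, summed to 414, 347 and 303 CPM in control and 358, 287 and 327 CPM in cadmium. These sums overlapped and the difference did not pass (−0.13 ± 0.14, SE).

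The COL6 cluster Cluster-9033.33423 had 176, 153 and 97.7 CPM in control and 43.2, 51.5 and 0 CPM in cadmium. The groups did not overlap, but the spread within cadmium was wide and the difference did not pass (log2 fold change −2.17 ± 1.16, SE, edgeR, Benjamini-Hochberg adjusted p = 0.215). Without cadmium replicate 3 it passed, at −1.58. The same NR protein has 3 clusters, of which 2 are members. They summed to 287, 276 and 197 CPM in control and 106, 91.7 and 59.7 CPM in cadmium. That sum fell by 1.56 ± 0.23 on the log2 scale (SE). Both members were at 0 in cadmium replicate 3, so its 59.7 CPM came from the cluster that is not a member. The 5 COL6 clusters, all members, were also summed over their Swiss-Prot hit. They gave 267, 299 and 222 CPM in control and 88.2, 102 and 75.3 CPM in cadmium (log2 fold change −1.56 ± 0.17, SE).

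**Figure D3:**
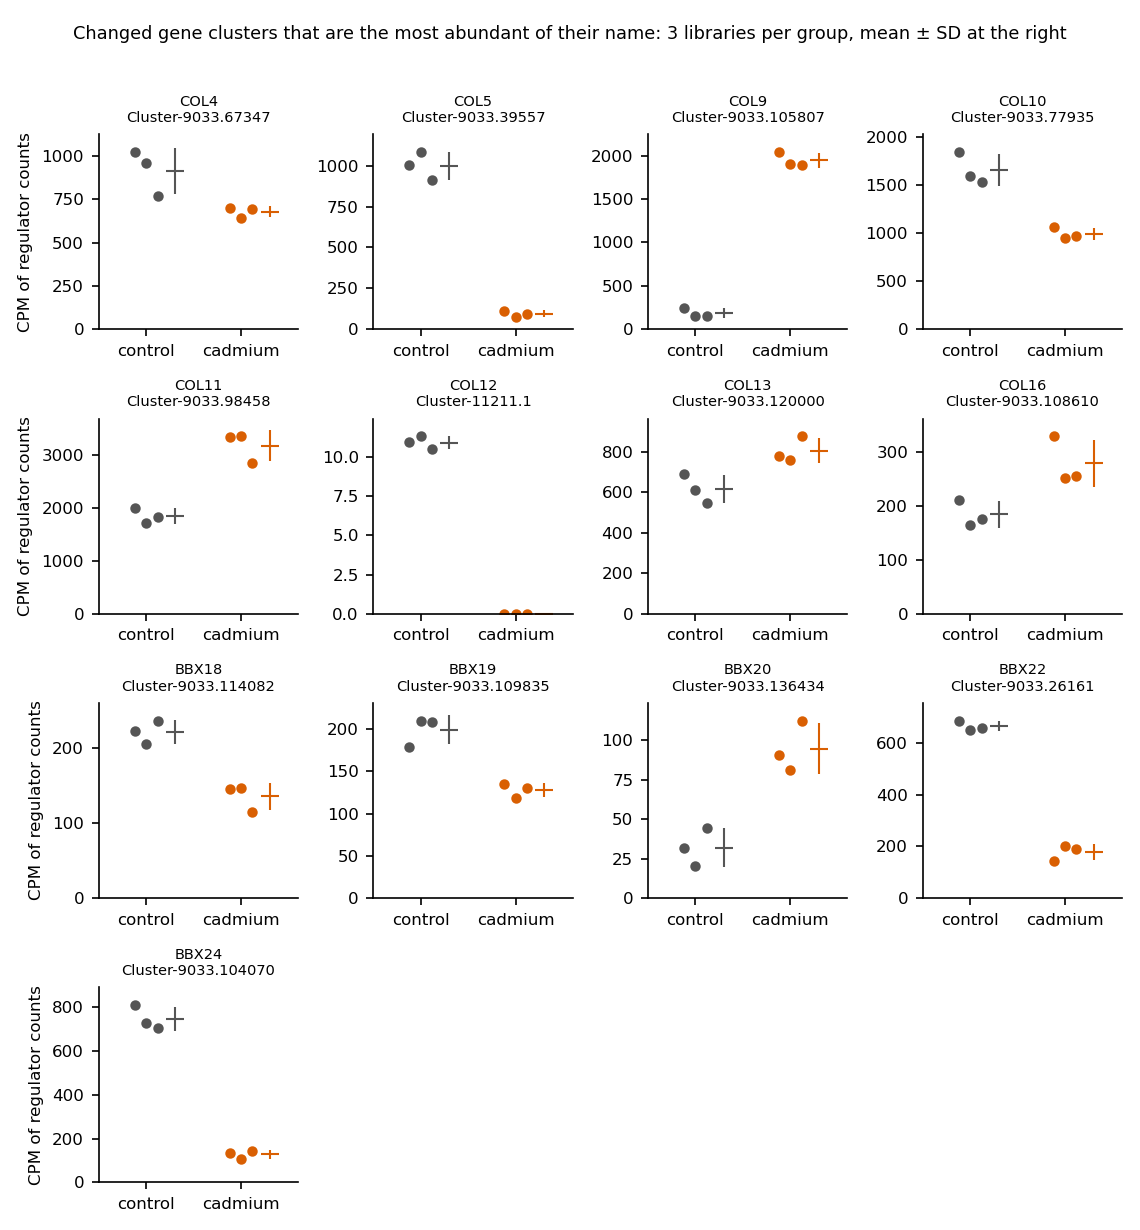
CPM in each library (vertical axes, starting at 0) for the 13 changed members that are the most abundant cluster of their name, with 3 control and 3 cadmium libraries as points and the mean ± SD beside them. COL9, COL11, COL13, COL16 and BBX20 lie higher in cadmium and the others lower, COL12 is at 0 in all cadmium libraries, and the COL4, COL13 and COL16 groups lie close together.

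The B-box proteins BBX18 to BBX25, with 2 B-boxes and no CCT domain, were the largest group and had the most falling clusters by number. Of 36 clusters 25 were tested, 2 rose and 12 fell (against 15.8% and 14.6% of all tested clusters). The median log2 fold change was −0.99, or −1.34 with whole-library totals, and that of COL6 and COL16 was lower, at −2.08. With whole-library totals 12 of the 25 fell, against 5 of 7 tested COL1 to COL5 clusters and 22.9% of all tested clusters. The summed level of BBX18 to BBX25 was 178, 167 and 166 FPKM in control and 58.2, 61.0 and 56.7 FPKM in cadmium. The cadmium libraries held 34.4% of the control level in FPKM and 41.2% in CPM.

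BBX24, described in Arabidopsis as SALT TOLERANCE because it raised the salt tolerance of yeast, holds back HY5. Its Cluster-9033.104070 was at 809.8, 727 and 705 CPM in control and at 137, 107 and 145 CPM in cadmium, a log2 fold change of −2.53 ± 0.15 (SE, edgeR, Benjamini-Hochberg adjusted p = 0.000142). Cluster-9033.104071 went from 321, 432 and 332 to 47.5, 30.9 and 16.4 CPM (−3.51 ± 0.4, SE). Every cadmium library was far below every control library in both clusters. Together they summed to 1109 ± 63.7 CPM in control and 161 ± 23.2 CPM in cadmium (SD, n = 3).

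BBX22, which works with HY5 in promoting the light response of seedlings, fell in 3 of its 4 clusters. Cluster-9033.26161 was at 685, 651 and 658 CPM in control and at 142, 200.3 and 190.3 CPM in cadmium (log2 fold change −1.91 ± 0.15, SE, edgeR, Benjamini-Hochberg adjusted p = 0.000415). Cluster-9033.7471, of lower level, went from 52.7, 35.6 and 33.1 to 6.78, 5.62 and 7.79 CPM (−2.57 ± 0.43, SE). All 4 clusters share 1 NR protein, whose sum fell from 824 ± 46.7 to 226 ± 29.1 CPM (SD, n = 3).

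BBX18 and BBX19, repressors of the light response of seedlings, fell in all 7 of their tested clusters. BBX19 also binds CONSTANS and delays flowering in Arabidopsis. The most abundant BBX19 cluster, Cluster-9033.109835, was at 179, 209.7 and 208 CPM in control and 135, 118 and 131 CPM in cadmium (log2 fold change −0.64 ± 0.14, SE, edgeR, Benjamini-Hochberg adjusted p = 0.0158). Its groups did not overlap, and the call ended without control replicate 2, control replicate 3 or cadmium replicate 2 (adjusted p 0.0338 to 0.0666 over the 6 libraries).

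Larger falls were seen in Cluster-9033.109838, from 239.9, 175 and 198 to 50.9, 88.9 and 54.5 CPM (−1.66 ± 0.27, SE), and in Cluster-9033.137521, from 49.7, 38.1 and 41.2 to 0, 0 and 1.73 CPM. Both BBX19 clusters kept the call with any single library left out. The BBX18 cluster Cluster-9033.114082 went from 222, 205 and 236 to 145, 146 and 115 CPM (−0.71 ± 0.15, SE). Its call ended without control replicate 1 or control replicate 3 (edgeR, Benjamini-Hochberg adjusted p 0.0367 to 0.0557 over the 6 libraries). Cluster-9033.137523, also BBX18, had 16.8, 29.1 and 15.3 CPM in control and 0 in all cadmium libraries, at least 23.2-fold lower by the bound used above. That call ended without control replicate 2 (adjusted p 0.0215 to 0.0525 over the 6 libraries). The B-box 19-like NR protein shared by 7 of the BBX18 and BBX19 clusters summed to 325 ± 24.7 CPM in control and 157 ± 27.0 CPM in cadmium (SD, n = 3).

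BBX20, which promotes the light response of seedlings and is repressed by brassinosteroid in Arabidopsis, was the name among these B-box proteins with rising clusters. Cluster-9033.136433 went from 26.3, 29.96 and 8.88 to 109, 86.1 and 107 CPM and Cluster-9033.136434 from 31.5, 20.2 and 44.4 to 90.7, 81.4 and 112 CPM. All cadmium libraries were above all control libraries, with log2 fold changes of 2.21 ± 0.48 and 1.56 ± 0.36 (SE). Both calls ended without cadmium replicate 1 or cadmium replicate 3, and the second also without control replicate 1 (edgeR, Benjamini-Hochberg adjusted p 0.0108 to 0.0538 and 0.0215 to 0.0656 over the 6 libraries). The NR protein of both, with 3 clusters, summed to 69.5, 61.5 and 67.8 CPM in control and 211, 175 and 221 CPM in cadmium and rose by 1.61 ± 0.15 on the log2 scale (SE). The other 5 tested BBX20 clusters did not pass.

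BBX21, another partner of HY5, had 5 tested clusters and none passed in edgeR, where none had an unadjusted p below 0.05. DESeq2 called 0 of them, and limma on log2(FPKM + 1) called 1 lower. Its most abundant cluster, Cluster-9033.135235, was at 128, 118 and 99.3 CPM in control and 155, 138 and 161 CPM in cadmium (log2 fold change 0.39 ± 0.16, SE, edgeR, Benjamini-Hochberg adjusted p = 0.126), or 0.04 with whole-library totals.

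BBX32, with 1 B-box, binds BBX21 and represses the light response in Arabidopsis. It had 3 clusters, of which none passed in edgeR and 1 had an unadjusted p below 0.05, while DESeq2 called 1 lower and limma on log2(FPKM + 1) called 2 lower. Cluster-9033.124580 was at 459, 523 and 501 CPM in control and at 494, 496 and 509.5 CPM in cadmium. The groups overlapped, and the log2 fold change was 0.02 ± 0.08 (SE, edgeR, Benjamini-Hochberg adjusted p = 0.907), but −0.33 with whole-library totals, where this cluster and another passed as lower. In FPKM it was 44.4 ± 2.51 in control and 35.6 ± 1.31 in cadmium (SD, n = 3).

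Many clusters share a protein hit and can divide reads between them, so counts were also summed over the best NR protein. The 87 members fall under 31 NR proteins, and the sums also take in clusters of these proteins that are not members. This holds for sums with COL3, COL4, COL6 and COL11 clusters. Of the 31 NR proteins 27 were tested. Of these 7 rose (25.9%, against 30.4% of all 2070 NR proteins tested) and 12 fell (44.4%, against 29.9%). In all 19 changed (70.4%, against 60.3%), with Benjamini-Hochberg adjusted p between 3.52e-08 and 0.0343 (edgeR). With whole-library totals, chosen for these sums after seeing the data, 18 of the 19 kept their call, COL13 lost it, and 6 sums were higher and 16 lower (against 20.9% and 45% of all NR proteins, with 65.8% changed). Of the 33 changed members, 30 lie in an NR sum that changed in the same direction, and the others are COL4 Cluster-9033.67358, COL16 Cluster-8738.0 and COL16 Cluster-9033.108610.

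The largest rise in these sums was that of the COL4-like protein that holds 3 COL9-named clusters, from 316, 297 and 295 to 2289.5, 2434 and 1990.5 CPM (log2 fold change 2.89 ± 0.1, SE). The summed counts of the BBX24 protein fell by 2.78 ± 0.11 and those of the COL5-like protein by 2.76 ± 0.12 on the log2 scale (SE). The sums of the 3 tested BBX19 proteins, 214 to 396 CPM on average in control, each fell by more than 1 on the log2 scale, from −1.02 ± 0.13 to −1.64 ± 0.21 (SE).

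**Figure D4:**
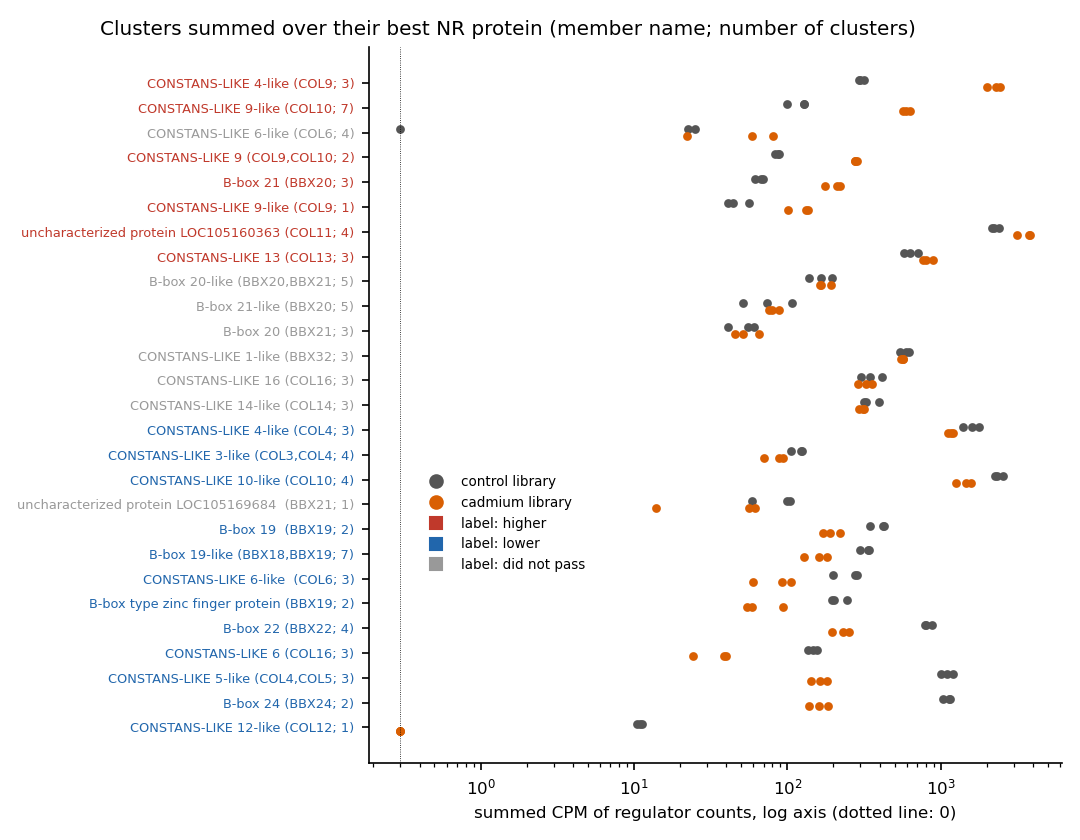
Counts summed over the clusters of each tested NR protein (rows, with the member names and the number of clusters in parentheses) as CPM on a log axis, with grey points for control libraries and orange points for cadmium libraries and 0 drawn at the dotted line. Rows run from the highest log2 fold change at the top to the lowest at the bottom. Row labels are red for the 7 proteins whose summed counts rose, blue for the 12 whose sums fell and light grey for the 8 that did not pass.

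The annotated domains divide the members differently from their names. A B-box and a CCT domain were both annotated on 22 clusters, a B-box alone on 48 and a CCT domain alone on 17. Of the clusters with both domains 18 were tested, 5 rose and 8 fell. Of those with a B-box alone 35 were tested, 5 rose and 12 fell, and of those with a CCT domain alone 9 were tested, 2 rose and 1 fell. Among all tested clusters 15.8% rose and 14.6% fell, and the domain classes were not compared by a test. Clusters were between 319 and 2833 bases long, with a median of 1486, and whether clusters without 1 of the domains are partial transcripts was not tested. The regulator family was C2C2-CO-like for 17 clusters and Orphans for 70.

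Of the 62 tested members 29 did not pass, with log2 fold changes between −2.17 and 3.81. The libraries did not overlap for 11 of these. Over all tested clusters, changed ones included, the share without overlap was 53.5%, and it was not counted for clusters that did not pass. The other 25 members did not pass the filter on low counts and were not tested. None of them exceeded 103 CPM in a library, 4 were at 0 in all cadmium libraries and 3 at 0 in all control libraries. The 4 changed members not given singly, 1 each of COL16, BBX18, BBX19 and BBX22, fell, with log2 fold changes from −2.68 to −1.57, and all of these calls but that of BBX19 ended when 1 of several libraries was left out.

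The authors' deposited table gave a q-value below 0.05 for 33 of the 87 members, 10 higher and 23 lower, against 19.1% of the 7697 clusters with a q-value. The test used here shared 29 of these calls with the same sign and none with the other sign. The 4 calls of the authors' deposited table not made here included COL6 Cluster-9033.33423 (log2 ratio −2.30, q = 0.000134). The 4 calls made here only were the minor COL4 cluster, the COL13 cluster, the rising COL16 cluster and BBX19 Cluster-9033.109835. In the authors' deposited table the log2 ratio was −3.47 for the COL5 cluster Cluster-9033.39557 and 3.31 for the COL9 cluster Cluster-9033.105807.

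Regulators that act on or with these proteins were taken by name, and their counts are descriptions beside the 15.8% of all tested clusters that rose and the 14.6% that fell. The clock pseudo-response regulators, which share the CCT domain, had 20 clusters tested of 25, with 3 higher, 12 lower and a median log2 fold change of −2.61. Their summed level was 6880 to 7428 CPM in control and 1904 to 1956 CPM in cadmium. Cluster-9033.87556, named APRR7, a morning repressor of the clock, was at 2149, 2037 and 2300.2 CPM in control and 22.9, 32.8 and 20.8 CPM in cadmium. All cadmium libraries were far below the control libraries. PRR1 (TOC1), the evening member, rose in Cluster-9033.116194 from 559, 568 and 552 to 1080.3, 1053 and 1127 CPM (0.96 ± 0.06, SE).

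The clock MYB-like factors had 23 of 40 clusters tested, 2 higher and 6 lower. RVE1, which links the clock to auxin, fell by 3.27 ± 0.31 in Cluster-9033.142516, while RVE8, a clock activator, rose by 3.01 ± 0.54 and PCL1, an evening clock factor, by 0.72 ± 0.09 on the log2 scale (SE). Cyclic dof factors, which repress CONSTANS transcription in Arabidopsis, had 17 of 30 clusters tested, 3 higher and 5 lower, with a median of 0.26, which whole-library totals turned to −0.09. CDF2 rose in Cluster-9033.8250 from 22.7, 24.3 and 15.3 to 248, 201 and 218 CPM and CDF3 fell in Cluster-2906.1 from 84.9, 93.9 and 102 to 11.02, 10.3 and 10.4 CPM. Another CDF2 cluster, Cluster-9033.50097, had 49.0, 140.1 and 138 CPM in control and 0 in all cadmium libraries.

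NF-Y subunits, the DNA-binding partners of CONSTANS, had 66 of 130 clusters tested, 10 higher and 11 lower, or 3 and 18 with whole-library totals. With those totals 10.9% of all tested clusters rose and 22.9% fell. NFYB3 fell by 1.31 ± 0.13 and NFYC9 by 0.62 ± 0.1 on the log2 scale (SE), both known to bind CONSTANS in Arabidopsis, while NFYC2 rose by 1.25 ± 0.19 and NFYA8 by 0.93 ± 0.13. HY5, the bZIP partner of BBX21, BBX22 and BBX24, fell in Cluster-9033.11385 from 95.1, 104 and 101 to 26.3, 46.8 and 23.4 CPM and in Cluster-9033.37163 from 41.7, 75.3 and 63.0 to 22.05, 14.0 and 17.3 CPM. The HY5 list had 4 of 10 clusters tested, 0 higher and 3 lower in edgeR (0 and 4 at an unadjusted p below 0.05 and in DESeq2). Phytochrome-interacting factors, which restrain the light response, had 26 of 51 clusters tested, 0 higher and 6 lower in edgeR (0 and 10 at an unadjusted p below 0.05, and 1 and 9 in DESeq2), among them PIF1 with a log2 fold change of −3.03 ± 0.47 and UNE10 with −1.09 ± 0.09 (SE). The clock lists and the members differ between the same libraries, and the part that clock phase at harvest has in the members' differences was not tested.

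**Figure D5:**
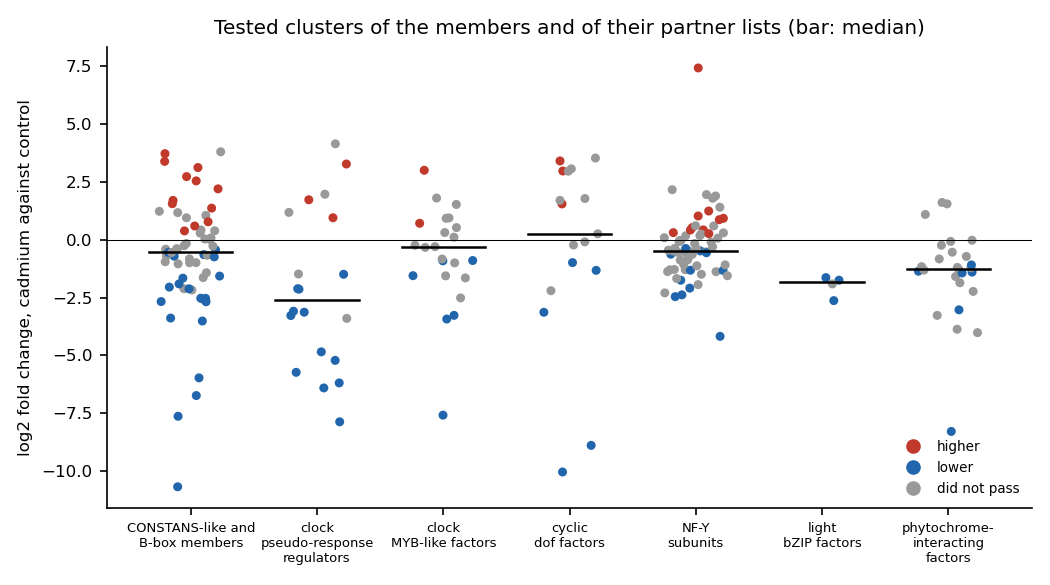
Log2 fold change of cadmium against control (vertical axis) of each tested cluster, for the members and the 6 lists of partners (horizontal axis), with red for higher, blue for lower and grey for clusters that did not pass, and a bar at each median. The medians are −0.55 for the members, −2.61 for the clock pseudo-response regulators, −1.83 for the light bZIP factors and 0.26 for the cyclic dof factors.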

How the data were processed

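RNA was measured in 3 control and 3 cadmium root libraries. The authors deposited expected counts per cluster, called read counts in the headers and not scaled to depth, which were rounded here to whole numbers. They also deposited FPKM values. The authors' log2 ratio and their q-value of cadmium against control stand in the same table, per its headers, and the sources used here do not give their test. Bowtie2 2.0.6 and TopHat2 2.0.12 are named, without a role, per the submitters' processing notes.

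Whole-library totals were recovered from counts, FPKM and length over clusters above 300 counts and 10 FPKM. The test was edgeR 4.0.16 (R 4.3.3) over all regulators: TMM scaling, the filter filterByExpr (minimum count 10, minimum total 15), a quasi-likelihood test of the group with no covariate, and Benjamini-Hochberg adjustment at 0.05. SE is the log2 fold change over the square root of F, and the common biological coefficient of variation was 0.573. Bounds use 3 counts over a group and cover counting error only. Alternatives were RLE size factors, whole-library totals, no filter, 5 CPM in 3 libraries, DESeq2 1.42.0, limma 3.58.1 on log2(FPKM + 1) and log2(FPKM + 0.1), a replicate block, each library left out, and sums over the Swiss-Prot hit or NR protein. Python 3.11.15, pandas 2.3.3, numpy 2.4.6 and matplotlib 3.10.9 were used.

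Members and lists were chosen with earlier results of these data known. Named are all members that rose, the 12 that fell with the smallest adjusted p, the most abundant cluster of each name, and members at 0 throughout 1 group whose other group has 10 or more counts on average. From each partner list up to 2 clusters in each direction are named. Counting may split reads of near-identical clusters, which makes single clusters less certain than their sums. If replicates did not come from separate plants, p-values measure only the spread between these libraries.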

Additional observations from a re-analysis of the deposited data

How the results depend on the processing

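Against 12 members higher, 21 lower and 1476 clusters changed, sums over the Swiss-Prot hit gave 4, 10 and 850, sums over the NR protein gave 7 higher and 12 lower, and NR sums with whole-library totals gave 6 higher. These count proteins, which are fewer than clusters. Deviations of same-numbered libraries correlated at 0.005, 0.029 and −0.004, and replicate numbers were not used to pair the samples. These values cannot tell whether same-numbered libraries came from the same repeat. A replicate block gave 886 clusters changed and 9 members higher and 12 lower. Leaving out 1 library at a time gave 8 to 11 members higher, 15 to 20 lower and 1136 to 1215 clusters changed.

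Over 33 named members that were tested and 17 other settings, 479 of 561 values kept their direction and their side of the threshold, 50 were no longer past it, 15 passed it anew and 17 changed sign. With RLE size factors, the 5 CPM filter and DESeq2 all 33 kept theirs. Sign changes under sums over the Swiss-Prot hit, the NR protein and the NR protein with whole-library totals were those of COL4 Cluster-9033.67358 (−0.42, −0.45 and −0.80) and COL16 Cluster-9033.108610 (−0.47, −0.13 and −0.48). COL10 Cluster-9033.146331 and Cluster-9033.146332 changed sign under Swiss-Prot sums (−0.28 for both), and BBX21 Cluster-9033.135235 under Swiss-Prot sums (−0.11) and NR sums with whole-library totals (−0.28). BBX32 Cluster-9033.124580, at 0.02, was −0.33 with whole-library totals, −0.31 and −0.32 with limma on log2(FPKM + 1) and log2(FPKM + 0.1), −0.04, −0.05 and −0.40 with the sums in the same order, and −0.02 to 0.06 with 1 library left out. The cause was not tested. The filter left 25 members untested, of which 8 were below 10 counts in every library, and the others had uneven or low counts.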
